A study of Homo sapiens with 6 samples.

Results

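NRF2, encoded by NFE2L2, is the main transcription factor of the cellular response to oxidants and electrophiles, and 31 genes of that response were followed here through 6 lung adenocarcinoma cell lines. The members were chosen by gene symbol as textbook parts or targets of the pathway, with no measured value in the rule. Earlier results of these data were known when the list was chosen. All 31 members were found among the 16000 genes listed in both deposited count tables. They comprise 4 regulators (NFE2L2, KEAP1, MAFG, SQSTM1), 5 glutathione genes and 4 thioredoxin genes. A further 5 are genes of NADPH supply and the pentose phosphate pathway, called the NADPH genes below. The rest are 4 iron and heme genes, 5 detoxifying enzymes and 4 other targets. The study sequenced ribosome-depleted total RNA from PC-9GR and PC-9ER with their parent PC-9, and from HCC827GR and HCC827ER with their parent HCC827, with 1 library for each line and no replicate. PC-9 and HCC827 are established human lung adenocarcinoma lines driven by activated EGFR, and the series concerns resistance to EGFR kinase inhibitors in lines made from them. The letters GR and ER are not explained in the labels, which also name no clone and do not say whether an inhibitor was in the medium; all 6 lines were grown in RPMI-1640 with serum. A label reads HCC82GR and was taken as HCC827GR.

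Under unstressed conditions KEAP1 holds NRF2 in the cytoplasm and directs its ubiquitination and breakdown. Oxidants and electrophiles modify cysteines of KEAP1, NRF2 then accumulates, pairs with a small MAF protein such as MAFG, and binds antioxidant response elements near its target genes. The targets supply glutathione, thioredoxin and NADPH, handle heme and iron, and inactivate quinones and other reactive compounds. Lung adenocarcinomas can carry mutations of KEAP1 or NFE2L2 that keep the pathway on; genotypes of these loci were not analysed here.

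Library totals over the shared genes lay between 14529331 counts (HCC827) and 17832869 counts (PC-9GR), so that 3 counts, taken as the floor, were worth 0.168 to 0.206 CPM, the counts of a gene scaled to a common library total. The PC-9GR library stood apart from its parent. Over genes, Spearman's rho of PC-9GR was 0.774 with its parent PC-9, and higher with the unrelated lines HCC827GR (0.828) and HCC827 (0.821). The other derived libraries stayed closer to their parents, at 0.960 for PC-9ER, 0.943 for HCC827GR and 0.888 for HCC827ER; genes within a library are not independent replicates. The keratin genes KRT8 and KRT18 of epithelial cells were high in all 6 libraries, at 1427 to 5359 CPM and at 1118 to 4123 CPM. Both were still at least 2-fold lower in HCC827GR than in HCC827, at log2 ratios of -1.91 and -1.69. The other 3 epithelial markers EPCAM, KRT19 and CDH1 were each at least 2-fold lower than the parent in PC-9GR, HCC827GR and HCC827ER. EPCAM, an epithelial surface protein, was at 1.91 CPM in PC-9GR, against 383.5 CPM in PC-9, and KRT19 at 13.1 CPM, against 1939 CPM. VIM, a mesenchymal intermediate filament gene, was at least 2-fold higher in all 4 derived libraries than in their parents, with 1391 CPM in PC-9GR, against 5.27 CPM in PC-9. The other 3 mesenchymal markers did not follow it: ZEB1 was at least 2-fold higher in both GR lines, CDH2 in PC-9GR, and FN1 in no line, being at least 2-fold lower in both GR lines. The summed level of the lung adenocarcinoma markers NKX2-1, NAPSA and SFTPB was 0.561 to 3.85 CPM in the 3 PC-9 libraries and 5.81 to 43.8 CPM in the 3 HCC827 libraries, and that of the leukocyte markers was 5.10 to 949.9 CPM, nearly all of it LCP1 except in PC-9GR, where LCP1 was at 0.0561 CPM. CD3E, which marks T cells, was at 0 or 1 count in every library. Summed endothelial markers were highest in PC-9, at 220.04 CPM, and lowest in PC-9GR, at 0.112 CPM, and summed fibroblast markers lay between 2.60 and 41.2 CPM, almost all COL1A1. Both ER libraries came in a table of their own, placed beside the other table in the same deposited file. Each ER line is thus set against a parent from the other table. A difference of ER from GR or parental lines cannot be told apart from one between tables. Ribosomal protein genes took 15.8% of the counts in HCC827ER, against 8.34% in HCC827, and the median gene of that pair lay at a log2 ratio of -0.35 on total counts; changes in HCC827ER are to be read against that shift. Whether marker levels, the table or the ribosomal share had a part in the results below was not tested, and in RNA from whole cultures fewer cells of a type and less RNA per cell cannot be told apart.

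**Figure D1:**
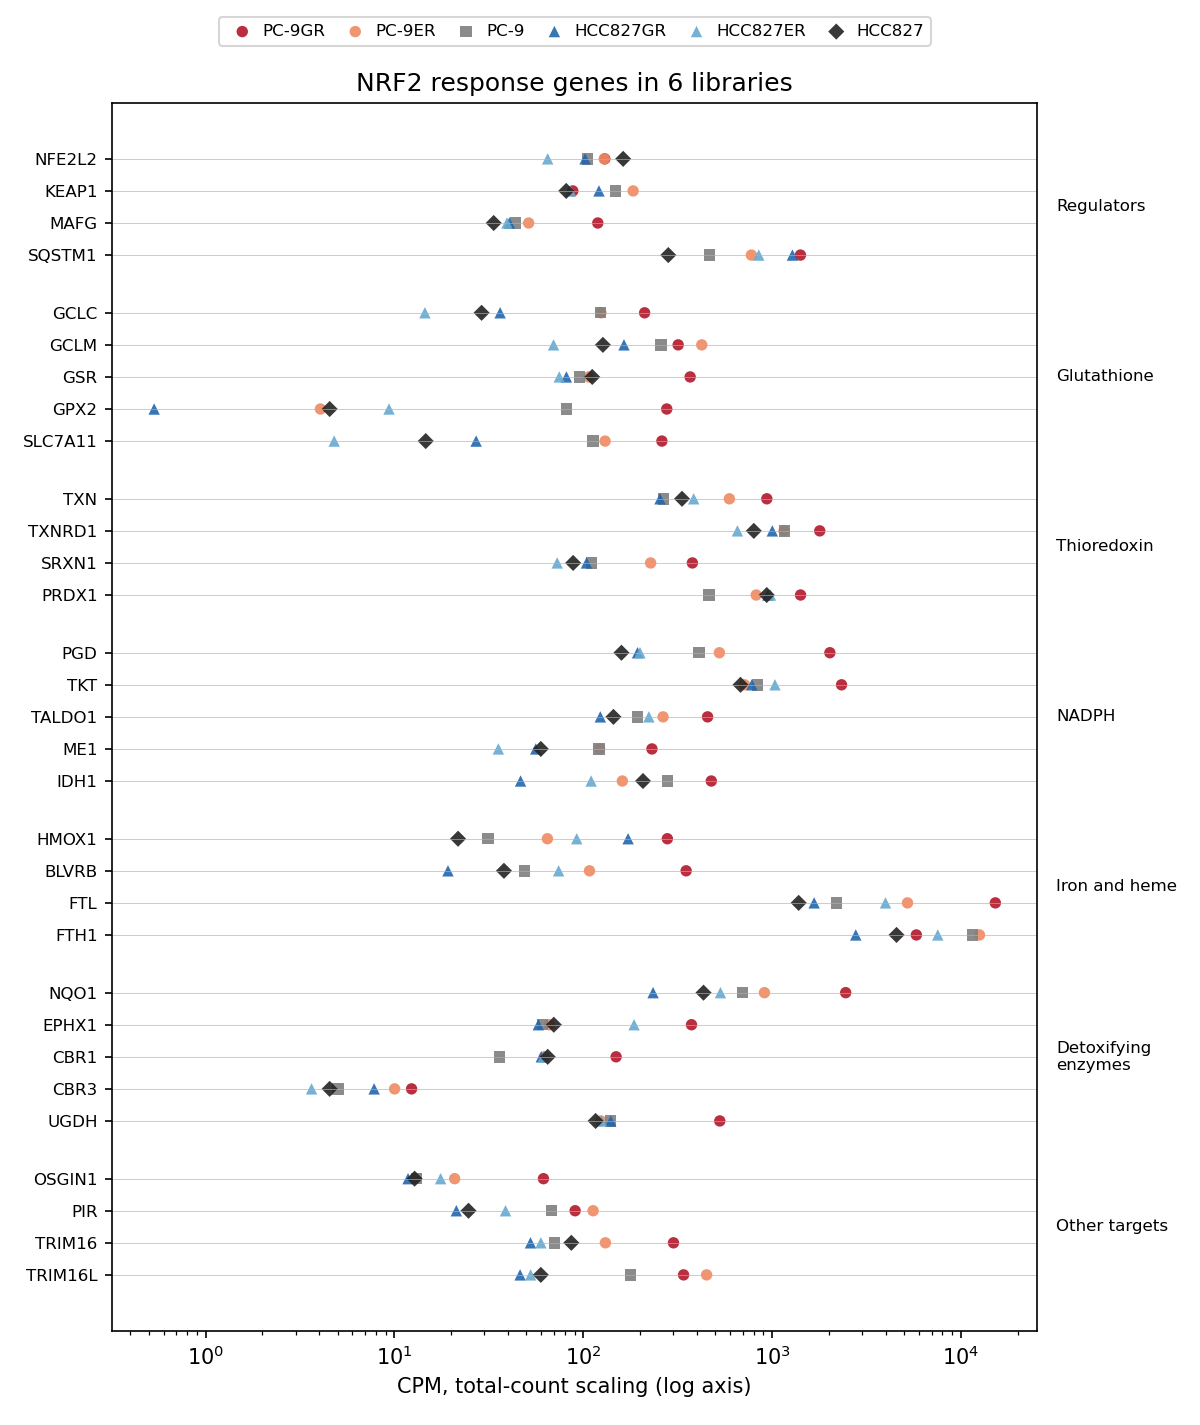
Level of each of the 31 members in CPM on a log axis, 1 row per gene and 1 point per library, grouped by role. PC-9GR holds the highest of the 6 values for 25 members, and the 6 values of GPX2 span the widest range.

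The members' median log2 ratio was 1.60 in PC-9GR against PC-9, beside -0.02 over all 13020 genes with at least 1 CPM in the pair. In PC-9GR, 21 of 31 members exceeded PC-9 by 2-fold or more (20.9% of all genes), and 0 were below it by that much (20.9%). In PC-9ER the median was 0.39 (all genes 0.03), with 6 members at least 2-fold higher (5.49%) and 1 lower by that much (7.61%). HCC827GR had a median of -0.09 against HCC827 (all genes 0.06), with 2 members at least 2-fold higher (8.16%) and 2 lower (8.8%). In HCC827ER the members' median was 0.10 (all genes -0.35), with 5 members at least 2-fold higher (11.3%) and 2 lower (28.3%). Ratios were computed on total counts with a prior count of 2, and they compare single libraries with no replicate check. Of the 31 members, 29 were above the parent in PC-9GR (49.4% of genes), 26 in PC-9ER (52.0%), 18 in HCC827ER (37.2%) and 15 in HCC827GR (55.2%). With TMM-scaled library sizes, which remove the shift of the median gene, the members' median in HCC827ER was 0.46.

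In all 4 pairs, 6 members were higher than in the parent: FTL, HMOX1, MAFG, PGD, PRDX1 and SQSTM1; the background was 11.1% of 13780 genes, and 0 members were lower in all 4 pairs (12.3%). With TMM scaling the count was 7, with CBR3 and SRXN1 in and PRDX1 out, since the ratio of PRDX1 in HCC827GR passed below 0. Without PC-9GR, 7 members were higher in the other 3 pairs, KEAP1 being added (15.9%). Without PC-9ER the count was 8 in 3 pairs (14.9%), without HCC827GR it was 13 (16.6%), and without HCC827ER it was 11 (18.8%). HMOX1 alone exceeded its parent 2-fold in each of the 4 pairs (0.414%), and HMOX1 and SQSTM1 were the only members whose 4 derived libraries all lay above both parental libraries (3.02%). The 2-fold count was 1 without PC-9GR (0.762%), 2 without PC-9ER, SQSTM1 being added (2.1%), 2 without HCC827GR, FTL being added (0.835%), and 1 without HCC827ER (0.733%). PC-9GR held the highest of the 6 values for 25 of 31 members (21.4%).

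**Figure D2:**
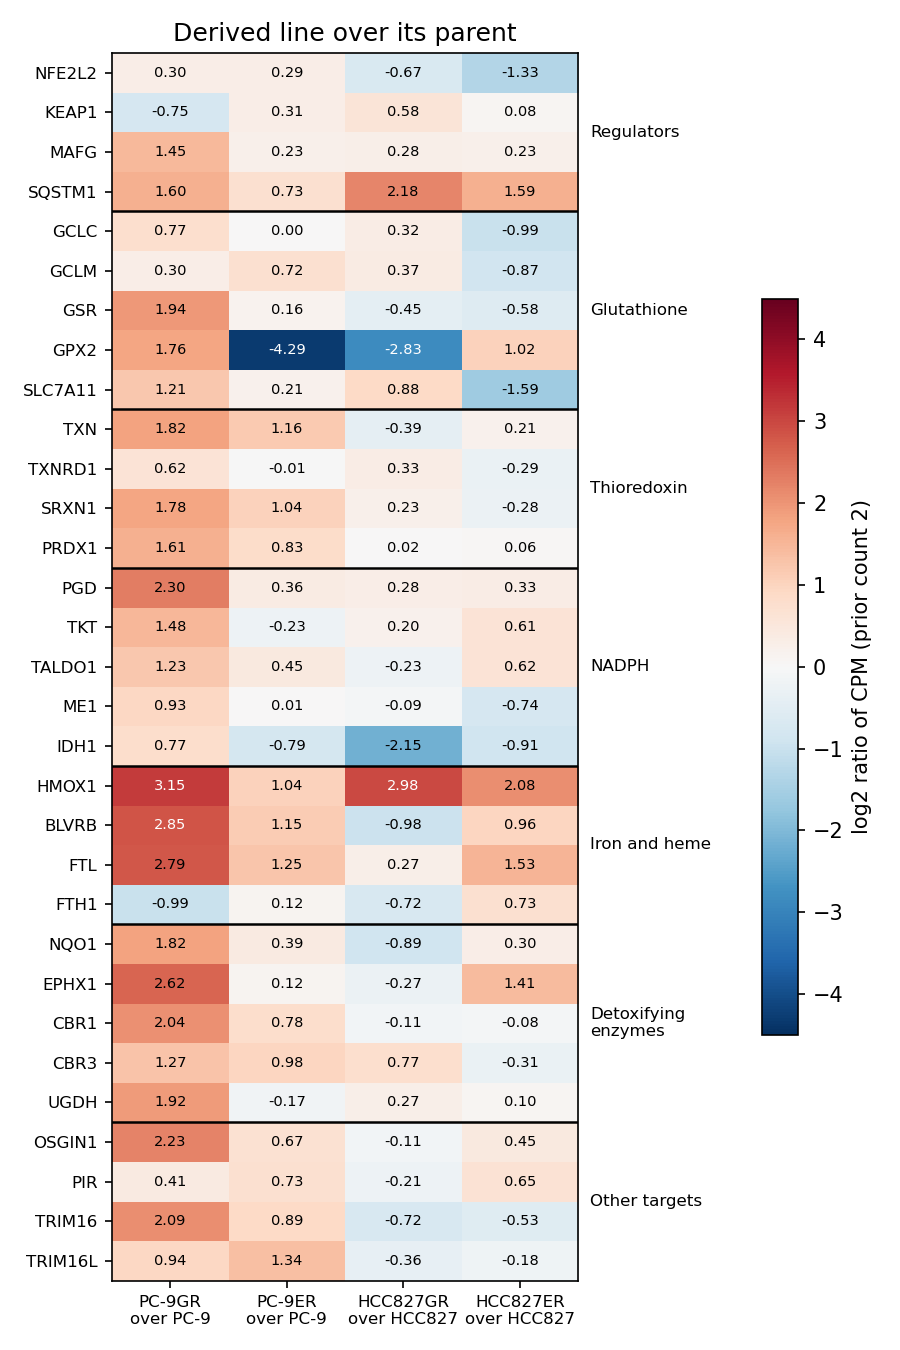
Log2 ratio of each derived library to its parent for the 31 members, on total counts with a prior count of 2. Rows are members and columns are pairs, with each value printed in its cell and shown by colour, and 0 marking equal levels. PC-9GR is above 0 for 29 members, while the HCC827GR and HCC827ER values fall on both sides of 0.

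The glutathione, thioredoxin, NADPH and iron and heme members were then set side by side. The iron and heme genes had a median log2 ratio of 2.82 in PC-9GR, 1.24 in HCC827ER, 1.09 in PC-9ER, but -0.22 in HCC827GR. The thioredoxin genes had medians of 1.69 in PC-9GR and 0.94 in PC-9ER, with 0.13 and -0.11 in the HCC827GR and HCC827ER pairs. For the NADPH genes the median was 1.23 in PC-9GR but 0.01 in PC-9ER, while HCC827GR had -0.09 and HCC827ER 0.33. The glutathione genes had a median of 1.21 in PC-9GR, 0.16 in PC-9ER, 0.32 in HCC827GR but -0.87 in HCC827ER, which was below the -0.35 of all genes in that pair. In HCC827ER all 4 iron and heme members were thus above HCC827, while 4 of 5 glutathione members were below it; of all genes in that pair 37.2% were above. The wider lists differed from the members there, with a median of 0.76 for the other glutathione genes and -0.03 for the other iron and heme genes. These are medians of 4 or 5 genes in single pairs of libraries, and differences between the groups were not tested.

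**Figure D3:**
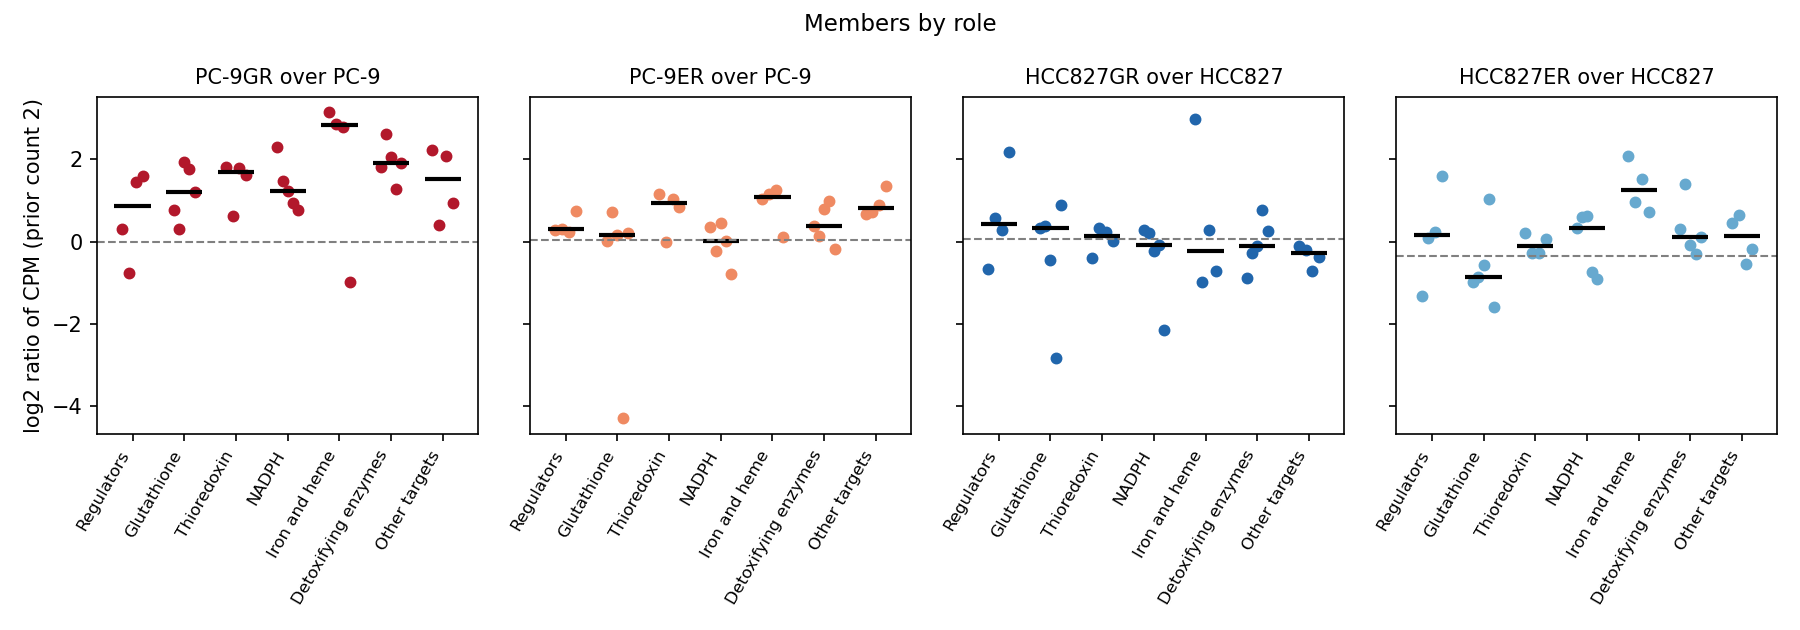
Log2 ratios to the parent by role, 1 panel per pair; points are members, horizontal bars are group medians and the dashed line is the median of all genes. In HCC827ER the iron and heme group has a median of 1.24 and the glutathione group one of -0.87.

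Antioxidant response elements have the core TGACNNNGC. It was searched for on both strands of 300-base RefSeq windows, from 250 bases before to 50 after an annotated start (GRCh38.p14). A gene can have several such starts, not all at its outer end, and was counted if any of its windows held the core. A window was at hand for 24 members, with 32 windows between them. Of these members 10 held the core (41.7%), against 18.6% of the 12753 genes of the count tables that had a window. The longer form TGACTCAGC, which also contains the AP-1 site TGACTCA, stood in 2 of 24 members, ME1 and PIR, against 0.729% of those genes. TGACTCA itself stood in 3 of 24 members (12.5%), against 5.32% of those genes. A match describes letters in this window and is neither a site nor a cause. The windows of 4 members that hold the core, 2 glutathione genes (GCLM, GPX2), 1 NADPH enzyme (ME1) and 1 other target (PIR), are shown on the strand of the gene, with the core matches in capitals.
GCLM, chr1:93909381-93909680, minus strand: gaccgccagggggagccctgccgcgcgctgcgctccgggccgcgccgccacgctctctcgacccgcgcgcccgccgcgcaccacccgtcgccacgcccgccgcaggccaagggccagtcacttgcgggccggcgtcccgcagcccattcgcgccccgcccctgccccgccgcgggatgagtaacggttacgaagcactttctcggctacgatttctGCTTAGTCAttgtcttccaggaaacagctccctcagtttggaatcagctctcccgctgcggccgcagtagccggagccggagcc
GPX2, chr14:64942696-64942995, minus strand: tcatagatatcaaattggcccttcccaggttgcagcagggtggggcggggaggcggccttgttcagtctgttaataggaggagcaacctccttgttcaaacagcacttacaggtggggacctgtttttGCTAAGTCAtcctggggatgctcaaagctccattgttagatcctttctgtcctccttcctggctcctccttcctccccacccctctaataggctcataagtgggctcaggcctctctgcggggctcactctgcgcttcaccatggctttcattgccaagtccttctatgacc
ME1, chr6:83431002-83431301, minus strand: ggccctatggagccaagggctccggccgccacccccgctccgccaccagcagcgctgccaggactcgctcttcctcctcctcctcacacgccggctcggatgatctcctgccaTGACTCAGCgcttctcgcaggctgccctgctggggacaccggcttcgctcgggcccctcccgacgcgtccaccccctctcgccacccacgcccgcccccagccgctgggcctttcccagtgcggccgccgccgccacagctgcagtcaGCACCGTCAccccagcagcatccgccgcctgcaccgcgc
PIR, chrX:15493284-15493583, minus strand: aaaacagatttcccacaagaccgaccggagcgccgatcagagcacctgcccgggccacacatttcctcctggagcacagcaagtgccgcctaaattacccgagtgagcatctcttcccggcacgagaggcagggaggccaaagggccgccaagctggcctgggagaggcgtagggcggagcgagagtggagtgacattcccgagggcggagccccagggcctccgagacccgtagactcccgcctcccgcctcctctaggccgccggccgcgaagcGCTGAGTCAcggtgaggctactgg
The core lay with its first base 34 bases before the start in GCLM and 122 bases before it in GPX2, and ME1 held a match on each strand. HMOX1, SLC7A11, PRDX1, CBR3, TRIM16L, FTH1 and GSR have no window here.

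Among the regulators, the transcript of NRF2 itself was at 1.23-fold of PC-9 in PC-9GR. NFE2L2 (GRCh38 chr2:177227595-177392697, minus strand) had 130.2 CPM in PC-9GR and 129 in PC-9ER, against 106 in PC-9, and 102 in HCC827GR and 64.9 in HCC827ER, against 163 in HCC827. It was thus slightly higher in both lines derived from PC-9 and lower in both lines derived from HCC827, its highest library being HCC827. KEAP1, the adaptor that directs NRF2 to breakdown (chr19:10486120-10503741, minus strand), had 88.2 CPM in PC-9GR and 184 in PC-9ER, against 149 in PC-9, and 121 in HCC827GR and 85.8 in HCC827ER, against 81.4 in HCC827. KEAP1 was lower in PC-9GR than in PC-9, at a log2 ratio of -0.75, and higher in PC-9ER and HCC827GR. Within a library the ratio of KEAP1 to NFE2L2 counts, which needs no scaling between libraries, was 0.677 in PC-9GR and 1.42 in PC-9ER, against 1.40 in PC-9, and 1.18 in HCC827GR and 1.32 in HCC827ER, against 0.499 in HCC827. PC-9GR was therefore the lowest of its family and HCC827 the lowest of the other.

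MAFG, a small MAF partner of NRF2 that is also its target, had 119.6 CPM in PC-9GR and 51.4 in PC-9ER, against 43.7 in PC-9, and 40.7 in HCC827GR and 39.5 in HCC827ER, against 33.6 in HCC827. All 4 derived libraries were above their parents, PC-9GR by a log2 ratio of 1.45 and the others by 0.23 to 0.28. SQSTM1 (chr5:179806398-179838078, plus strand) encodes p62, an autophagy receptor that binds KEAP1 and is itself an NRF2 target. It had 1415 CPM in PC-9GR and 778 in PC-9ER, against 467 in PC-9, and 1283 in HCC827GR and 852 in HCC827ER, against 282 in HCC827. The lowest derived library, PC-9ER, was above both parents, and the fold over the parent was 3.03 in PC-9GR and 1.66 in PC-9ER for the one parent, and 4.54 in HCC827GR and 3.01 in HCC827ER for the other. SQSTM1 counts were not whole numbers in any library, as reads shared with another copy can give, so its level carries that uncertainty.

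The glutathione genes were mostly higher in PC-9GR than in PC-9 and mostly lower in HCC827ER than in HCC827. GCLC, the catalytic subunit of the enzyme that starts glutathione synthesis, had 212 CPM in PC-9GR and 124 in PC-9ER, against 124 in PC-9, and 36.3 in HCC827GR and 14.52 in HCC827ER, against 28.98 in HCC827. Its PC-9ER and PC-9 values were nearly equal, with the sign of the ratio changing under TMM, and HCC827ER was the lowest of the 6. GCLM, the modifier subunit of the same enzyme, had 319 CPM in PC-9GR and 425 in PC-9ER, against 259 in PC-9, and 165 in HCC827GR and 69.7 in HCC827ER, against 127 in HCC827, so that it was highest in PC-9ER and lowest in HCC827ER. The ratio of GCLM to GCLC counts was 1.51 in PC-9GR and 3.42 in PC-9ER, against 2.09 in PC-9, and 4.53 in HCC827GR and 4.80 in HCC827ER, against 4.39 in HCC827.

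SLC7A11, the light chain of the cystine importer that feeds glutathione synthesis, had 261 CPM in PC-9GR and 131 in PC-9ER, against 113 in PC-9, and 27.1 in HCC827GR and 4.80 in HCC827ER, against 14.7 in HCC827. It spanned a wide range, with PC-9GR highest and HCC827ER lowest, and all 3 HCC827 libraries lay below all 3 PC-9 libraries. GSR, which reduces oxidised glutathione, had 369 CPM in PC-9GR and 107 in PC-9ER, against 95.9 in PC-9, and 81.5 in HCC827GR and 74.7 in HCC827ER, against 112 in HCC827. PC-9GR stood above the other 5 libraries of GSR, at 3.85-fold over PC-9.

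GPX2 (chr14:64939152-64942905, minus strand), a glutathione peroxidase of epithelia, varied most of all members. It had 277 CPM in PC-9GR and 4.06 in PC-9ER, against 81.7 in PC-9, and 0.534 in HCC827GR and 9.37 in HCC827ER, against 4.54 in HCC827, the HCC827GR value resting on 8 counts. PC-9GR and HCC827ER were above their parents, by 3.39-fold and 2.06-fold, while PC-9ER and HCC827GR were below theirs, by 20.1-fold and 8.50-fold. The sign thus differed between the GR and the ER line of each parent and also between the GR lines.

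Among the thioredoxin genes, PC-9GR was above PC-9 for all 4 and PC-9ER for 3, TXNRD1 being the exception, while the lines derived from HCC827 lay closer to their parent. TXN, thioredoxin itself, had 939 CPM in PC-9GR and 595 in PC-9ER, against 266 in PC-9, and 255 in HCC827GR and 385 in HCC827ER, against 334 in HCC827. Both lines derived from PC-9 were more than 2-fold above it, while HCC827GR was below and HCC827ER slightly above HCC827. TXNRD1, the reductase that recharges thioredoxin with NADPH, had 1791 CPM in PC-9GR and 1158 in PC-9ER, against 1164 in PC-9, and 1004 in HCC827GR and 657 in HCC827ER, against 801 in HCC827. TXNRD1 spanned the narrowest range of this group, with PC-9ER at 0.995-fold of PC-9, and the HCC827ER value changed sign under TMM.

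SRXN1, sulfiredoxin, which repairs overoxidised peroxiredoxins, had 379 CPM in PC-9GR and 228 in PC-9ER, against 110.4 in PC-9, and 104 in HCC827GR and 72.9 in HCC827ER, against 88.5 in HCC827. It was more than 2-fold higher in both lines derived from PC-9 and at 1.18-fold of HCC827 in HCC827GR and 0.823-fold in HCC827ER, the last changing sign under TMM. PRDX1, a peroxiredoxin that removes hydrogen peroxide, had 1417 CPM in PC-9GR and 825 in PC-9ER, against 465 in PC-9, and 952 in HCC827GR and 981 in HCC827ER, against 938 in HCC827. PC-9 was the lowest library of PRDX1 and HCC827 was 2.02-fold above PC-9. HCC827GR and HCC827ER stood at log2 ratios of 0.02 and 0.06 to HCC827. Counts of PRDX1 were not whole in any library.

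Of the NADPH genes, PGD had the highest ratio in PC-9GR and HCC827GR, and TALDO1 in PC-9ER and HCC827ER. PGD, of the oxidative pentose phosphate pathway, had 2027 CPM in PC-9GR and 527 in PC-9ER, against 411 in PC-9, and 194 in HCC827GR and 199.9 in HCC827ER, against 159.5 in HCC827. PC-9GR stood alone at 4.93-fold over PC-9, and the other 3 derived libraries were 1.22-fold to 1.28-fold above their parents. TKT, transketolase, had 2337 CPM in PC-9GR and 716 in PC-9ER, against 836 in PC-9, and 782 in HCC827GR and 1038 in HCC827ER, against 681 in HCC827. TKT was lower in PC-9ER than in PC-9 and higher in the other 3 derived libraries. TALDO1, transaldolase, which with TKT links the pentose phosphate pathway to glycolysis, had 456 CPM in PC-9GR and 265 in PC-9ER, against 195 in PC-9, and 123 in HCC827GR and 223 in HCC827ER, against 145 in HCC827. HCC827GR was the only derived library of TALDO1 below its parent.

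ME1, malic enzyme, had 231 CPM in PC-9GR and 122 in PC-9ER, against 122 in PC-9, and 56.1 in HCC827GR and 35.6 in HCC827ER, against 59.7 in HCC827. ME1 was nearly equal in PC-9ER and PC-9 and lower in HCC827ER than in HCC827, at a log2 ratio of -0.74. IDH1, cytosolic isocitrate dehydrogenase, had 477 CPM in PC-9GR and 161 in PC-9ER, against 279 in PC-9, and 46.6 in HCC827GR and 110.2 in HCC827ER, against 208 in HCC827. IDH1 was lower than the parent in PC-9ER, HCC827GR and HCC827ER, at log2 ratios of -0.79, -2.15 and -0.91. On total counts it was the 1 member lower in all 3 pairs without PC-9GR (17.3% of genes). That standing depends on the scaling, as the ME1 ratio in PC-9ER passed from 0.006 to -0.002 under TMM. ME1 was below the parent in HCC827GR and HCC827ER on both scales.

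Of all members, HMOX1 had the highest ratio to the parent in PC-9GR, HCC827GR and HCC827ER, and TRIM16L in PC-9ER. HMOX1 (chr22:35380361-35394214, plus strand), heme oxygenase, breaks heme into biliverdin, carbon monoxide and iron. It had 279 CPM in PC-9GR and 64.7 in PC-9ER, against 31.3 in PC-9, and 173 in HCC827GR and 92.5 in HCC827ER, against 21.7 in HCC827. Every derived library was above both parents, the folds over the parent being 8.92 in PC-9GR and 2.07 in PC-9ER over PC-9, with 7.96 in HCC827GR and 4.25 in HCC827ER over HCC827, and the 95% Poisson intervals of the 6 values, which cover counting error only, did not overlap. BLVRB, a biliverdin reductase, had 351 CPM in PC-9GR and 108 in PC-9ER, against 48.8 in PC-9, and 19.2 in HCC827GR and 74.1 in HCC827ER, against 38.1 in HCC827. BLVRB was above the parent in 3 derived libraries but below it in HCC827GR, where the ratio of HMOX1 to BLVRB counts was 8.997, against 0.571 in HCC827.

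FTL (chr19:48965301-48966878, plus strand) and FTH1 (chr11:61959718-61967660, minus strand) encode the light and heavy chains of ferritin, the iron store. FTL had 15246 CPM in PC-9GR and 5224 in PC-9ER, against 2198 in PC-9, and 1672 in HCC827GR and 3994 in HCC827ER, against 1385 in HCC827. It was above the parent in all 4 pairs, though by only 1.21-fold in HCC827GR. FTH1 had 5818 CPM in PC-9GR and 12565 in PC-9ER, against 11575 in PC-9, and 2779 in HCC827GR and 7557 in HCC827ER, against 4568 in HCC827, which was below the parent in both GR lines and above it in both ER lines. Values of FTH1 were not whole in 5 of 6 libraries, and both ferritin genes have processed copies elsewhere in the genome.

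Within a library the ratio of FTL to FTH1 counts was 2.62 in PC-9GR and 0.416 in PC-9ER, against 0.190 in PC-9, and 0.602 in HCC827GR and 0.529 in HCC827ER, against 0.303 in HCC827. All 4 derived libraries were thus above their parents in this ratio, by 13.8 times in PC-9GR and 2.19 times in PC-9ER, and by 1.98 times in HCC827GR and 1.74 times in HCC827ER. PC-9GR was the only library in which FTL counts exceeded FTH1 counts.

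**Figure D4:**
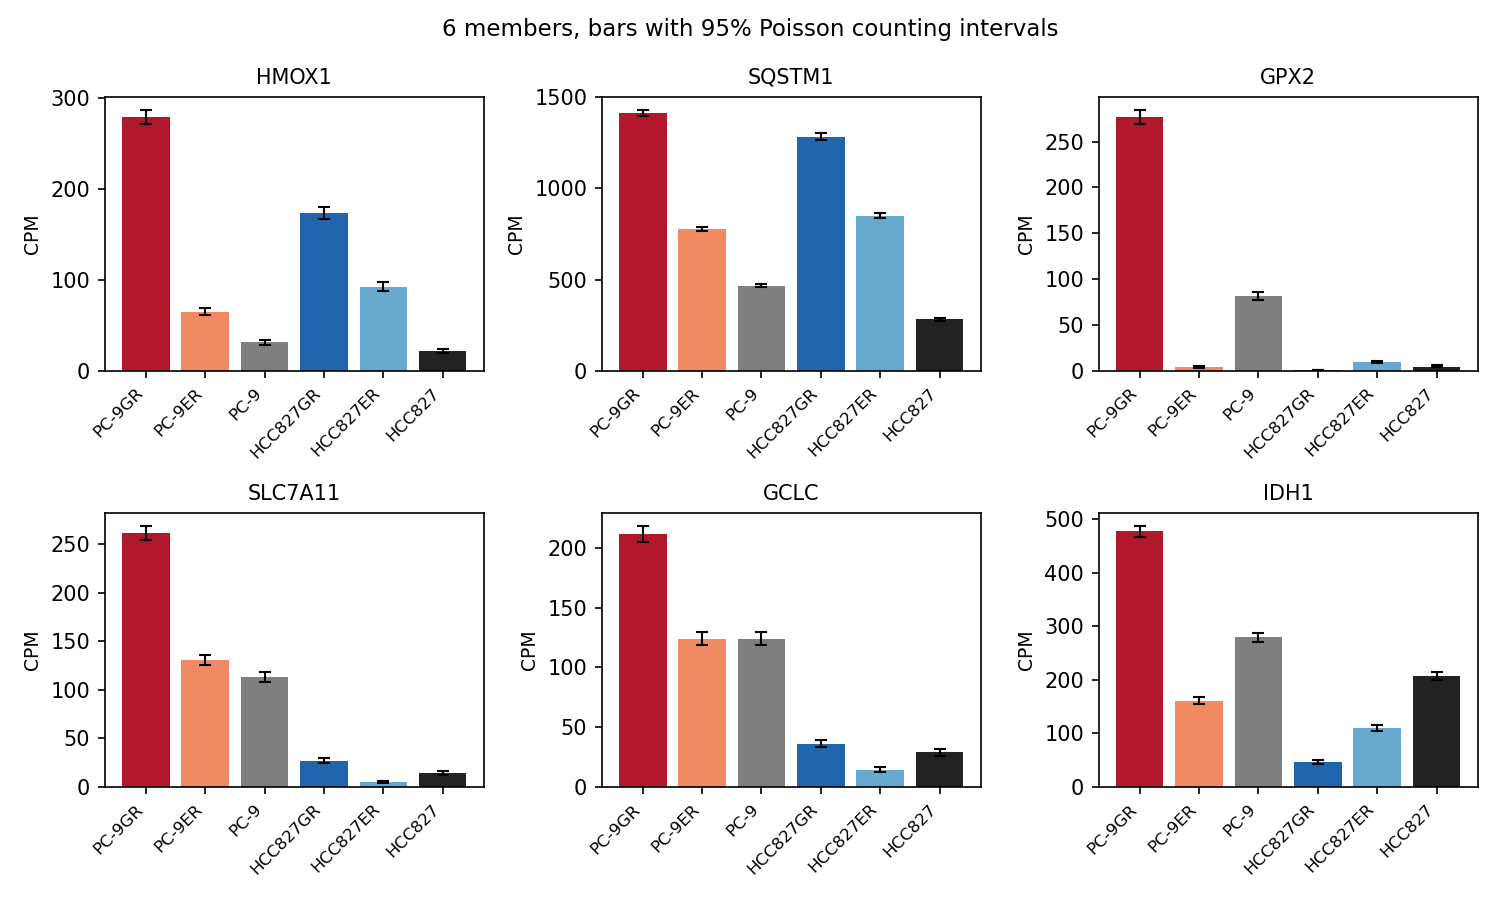
CPM of 6 members in every library, 1 panel per gene with its own axis from 0. HMOX1 and SQSTM1 are above both parents in all 4 derived libraries, and SLC7A11 is highest in PC-9GR and lowest in HCC827ER.

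**Figure D5:**
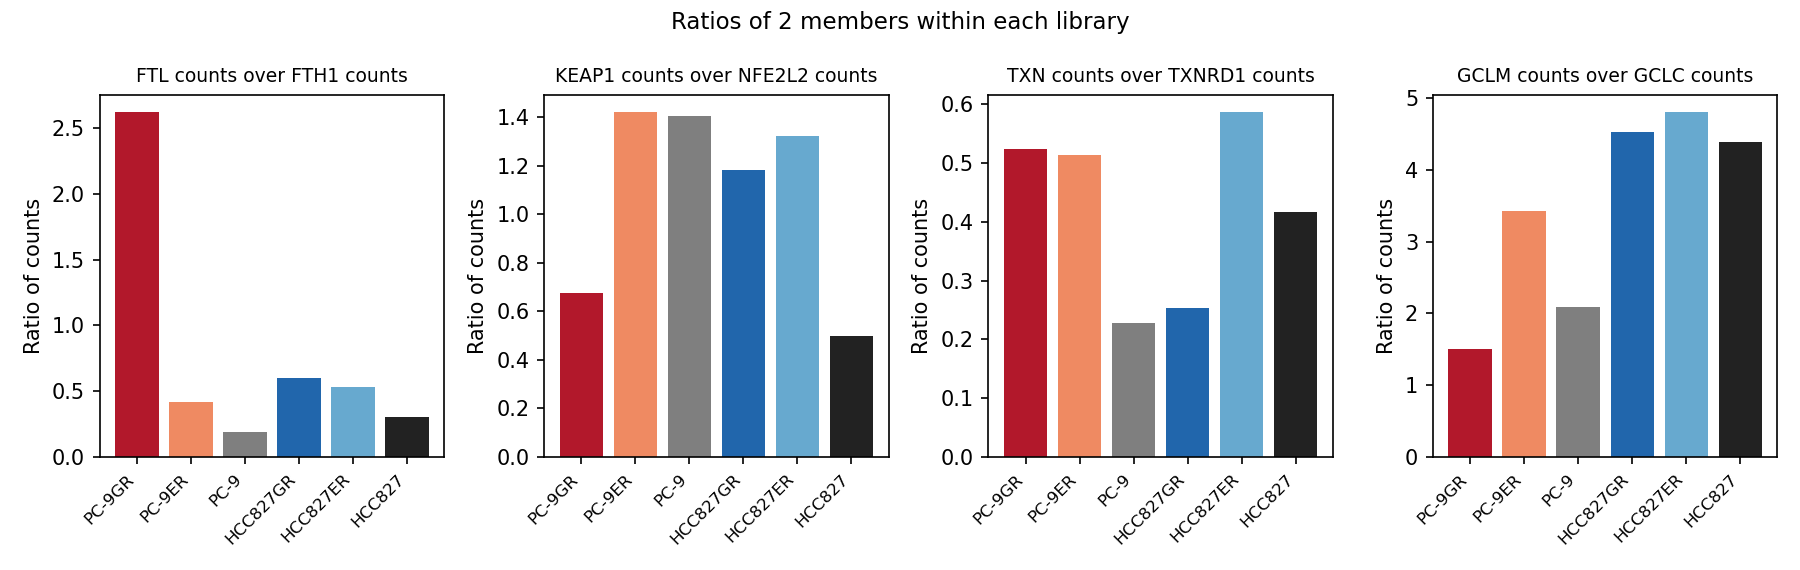
Ratio of the counts of 2 members within each library, which needs no scaling between libraries, shown as bars on a linear axis. The FTL to FTH1 ratio is 2.62 in PC-9GR and between 0.190 and 0.602 in the other 5 libraries.

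The detoxifying enzymes were all at least 2-fold higher in PC-9GR than in PC-9. NQO1, which reduces quinones without forming radicals, had 2458 CPM in PC-9GR and 913 in PC-9ER, against 697 in PC-9, and 235 in HCC827GR and 534 in HCC827ER, against 434 in HCC827. It was lower in HCC827GR than in HCC827 and higher in the other 3 derived libraries. EPHX1, microsomal epoxide hydrolase, had 375 CPM in PC-9GR and 66.3 in PC-9ER, against 60.8 in PC-9, and 57.9 in HCC827GR and 186 in HCC827ER, against 69.9 in HCC827. PC-9GR and HCC827ER stood above their parents by 6.17-fold and 2.66-fold, and PC-9ER and HCC827GR lay at 1.09-fold and 0.828-fold of theirs.

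CBR1, a carbonyl reductase, had 149 CPM in PC-9GR and 62.2 in PC-9ER, against 36.2 in PC-9, and 60.03 in HCC827GR and 61.5 in HCC827ER, against 64.9 in HCC827. CBR3, its close relative, was low throughout and had 12.3 CPM in PC-9GR and 10.0 in PC-9ER, against 5.03 in PC-9, and 7.81 in HCC827GR and 3.64 in HCC827ER, against 4.54 in HCC827. Both were above PC-9 in both lines derived from it, and the HCC827ER values of both changed sign under TMM. UGDH, which makes the UDP-glucuronate used for glucuronidation, had 529 CPM in PC-9GR and 124 in PC-9ER, against 139.7 in PC-9, and 139.97 in HCC827GR and 125 in HCC827ER, against 116 in HCC827, so that PC-9GR stood apart and the other 5 libraries spanned 116.4 to 139.97 CPM.

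OSGIN1, a growth inhibitor induced by oxidative stress, had 61.6 CPM in PC-9GR and 20.9 in PC-9ER, against 13.1 in PC-9, and 11.8 in HCC827GR and 17.6 in HCC827ER, against 12.8 in HCC827. PIR, pirin, an iron-binding nuclear protein, had 90.7 CPM in PC-9GR and 113 in PC-9ER, against 68.0 in PC-9, and 21.3 in HCC827GR and 38.8 in HCC827ER, against 24.7 in HCC827. OSGIN1 and PIR were below the parent in HCC827GR only. TRIM16, a tripartite-motif ubiquitin ligase, had 301 CPM in PC-9GR and 131 in PC-9ER, against 70.7 in PC-9, and 52.6 in HCC827GR and 59.7 in HCC827ER, against 86.6 in HCC827. TRIM16L, a partial copy of it, had 340.3 CPM in PC-9GR and 451 in PC-9ER, against 178 in PC-9, and 46.3 in HCC827GR and 52.7 in HCC827ER, against 59.7 in HCC827. Both TRIM16 genes were above PC-9 in the lines derived from it and below HCC827 in the lines derived from HCC827, TRIM16L in HCC827ER changing sign under TMM. As reads can be shared between these 2 genes, and neither had whole counts in any library, the split between them is uncertain.

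Levels of different genes were compared as CPM per kilobase of merged exon (GENCODE 29). On that scale FTL and FTH1 were the 2 highest members in every library, FTL at 1578 to 17365 and FTH1 at 1719 to 7771. PRDX1 and TXN ranked between 3 and 5 in every library, and SLC7A11 lay between 0.498 (HCC827ER) and 27.1 (PC-9GR). Between the parents, 24 of 31 members were lower in HCC827 than in PC-9 (48.7% of genes), 9 of them at least 2-fold (15.4%): FTH1, GCLC, GCLM, GPX2, ME1, PGD, PIR, SLC7A11 and TRIM16L. PRDX1 was the 1 member at least 2-fold higher in HCC827 (14.1%).

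The fits across all genes asked whether the derived lines differ from the parents by more than the derived lines differ among themselves. In edgeR's quasi-likelihood test with the line of origin as a block, 29 of 31 members had a fitted log2 change above 0 (53.2% of 13492 genes), with a median of 0.70 (all genes 0.04). The test called 0 members and 0 genes at an adjusted p of 0.05 (0.0%), the smallest adjusted p of a member being 0.999. HMOX1 and SQSTM1 were the 2 members with an unadjusted p under 0.05 (1.27% of genes higher at that level, 171 genes). HMOX1 had a fitted change of 2.60 ± 0.70 (SE), higher in 4 of 4 pairs, and SQSTM1 one of 1.63 ± 0.47, also higher in 4 of 4 pairs. FTL had a fitted change of 1.74 ± 0.77, EPHX1 one of 1.47 ± 0.93 and BLVRB one of 1.34 ± 0.92, each with an unadjusted p above 0.05. NFE2L2, at -0.30 ± 0.39, and IDH1, at -0.52 ± 0.70, were the 2 members fitted below 0.

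DESeq2 on the same design called 1 member, HMOX1, at 2.60 with an adjusted p of 0.0377, among 21 genes higher and 13 lower; over 16 alternatives its adjusted p ranged between 0.0377 and 1. Limma-voom called 0 members and 0 genes, with 2 members at an unadjusted p under 0.05 (1.13% of genes higher). These p-values rest on 3 residual degrees of freedom and measure the spread between lines, not between cultures of a line. Without PC-9GR the median fitted change of the members was 0.36, with 25 of 31 above 0.

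Split by parent, the lines derived from PC-9 had 29 members fitted above 0 (54.4% of genes), with a median of 1.17 (all genes 0.09), and those derived from HCC827 had 23 (52.4%), with a median of 0.34 (all genes 0.04). The HCC827 median was 0.13 with 20 members above 0 on total counts (all genes -0.07), and 0.17 with 20 in limma-voom. In edgeR 0 members passed in either split (0.0% of 14233 genes); at an unadjusted p under 0.05 there were 0 members for PC-9 (0.436% of genes higher and 0.492% lower) and 2 for HCC827, HMOX1 and SQSTM1 (0.682% higher and 0.674% lower). The HCC827 count was 0 on total counts, without the robust fit, and without HCC827GR or HCC827ER, and 1 without PC-9GR or PC-9ER. DESeq2 called 0 members in either split, with 5 higher at an unadjusted p under 0.05 for PC-9 (4.01% of genes) and 2 for HCC827 (1.79%), and limma-voom called 0, with 0 (0.211%) and 2 (0.485%). With PC-9ER left out, edgeR called HMOX1 in PC-9GR against PC-9 at an adjusted p of 0.0378, along with 617 genes higher and 606 lower; its adjusted p over 12 alternatives ranged between 0.0378 and 1, and the lone library was assumed to vary like the HCC827 lines. The splits by parent rest on 2 residual degrees of freedom. With PC-9ER or PC-9GR left out, 1 remains, and it comes from the difference between HCC827GR and HCC827ER. Without PC-9GR the PC-9 median was 0.39.

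The difference between the changes in HCC827 and in PC-9 was tested in the same fit. It was above 0 for 4 of 31 members (47.5% of genes), with a median of -0.83 (all genes -0.06), but 0 members passed in edgeR, 0 had an unadjusted p under 0.05 (0.464% of genes higher and 0.358% lower) and 0 were called by DESeq2 or limma-voom. Without PC-9GR the median difference was -0.24, with 13 members above 0. Among the HCC827 lines alone, leaving out HCC827ER gave a median of -0.13 with 14 members above 0.

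The other genes of the pathway lists, 106 in all, gave 104 tested genes, of which 72 were fitted higher and 32 lower. Of all 13492 genes 53.2% were fitted higher, which is the background for each list below. In these lists 0 genes passed the edgeR test (0.0% of all genes), and the median was 0.26 (all genes 0.04). Among 23 other glutathione genes 22 were fitted higher, GSTA4, a glutathione transferase, being the highest at 3.63 ± 1.97 on 2 to 217 counts a library, and GGCT, a glutamylcyclotransferase, the lowest at -0.73 ± 0.46. Of 13 other thioredoxin-system genes 10 were higher, and MSRB3, a methionine sulfoxide reductase, was at least 2-fold above the parent in all 4 pairs, with a fitted 3.18 ± 1.42; MSRA was lowest at -0.24 ± 0.47. The other NADPH genes split evenly, 7 higher and 7 lower, between NNT, the mitochondrial transhydrogenase, at 0.52 ± 0.53 and ALDH1L1 at -1.38 ± 1.14. ALDH1L1, a folate dehydrogenase, is at 0 in all 3 HCC827 libraries, and its fitted value depends on the prior count.

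Of 19 other iron and heme genes 11 were fitted higher, near the 53.2% of all genes. They ran from SLC40A1, the iron exporter ferroportin, at 1.47 ± 1.21 to TFRC, the transferrin receptor, at -0.73 ± 0.47. SLC40A1 had only 1, 15 and 3 counts in HCC827GR, HCC827ER and HCC827. Among 15 other detoxifying genes 13 were higher. AKR1C1 and AKR1C2, aldo-keto reductases, were at least 2-fold above the parent in all 4 pairs, with fitted changes of 6.19 ± 2.05 and 6.90 ± 1.66. The HCC827 parent had only 8 counts of AKR1C1 and 11 of AKR1C2, and HCC827GR had 22 of AKR1C1, so the size of these changes is uncertain. The AKR1C genes are near-identical and reads can be split between them. ABCG2, a drug efflux pump, was lowest of this list at -0.96 ± 1.07. Of the 16 other regulators 6 were higher, from MAFK at 1.05 ± 0.67 to MAFF at -1.54 ± 0.80, both small MAF genes. Of the 4 superoxide and peroxide genes 3 were higher, SOD2, the mitochondrial superoxide dismutase, at 1.22 ± 0.68 being the highest and SOD3, the extracellular one and at 0 in PC-9GR, the lowest at -0.66 ± 1.56.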

How the data were processed

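Ribosome-depleted total RNA of 6 lung adenocarcinoma lines was sequenced, with 1 library per line. The 2 deposited tables, side by side in the same file, hold estimated counts per gene, of which 13.4% to 14.6% were not whole. Reads were aligned with HISAT2 2.0.4 to GRCh38.p13 and Cuffdiff is listed, per the submitters' processing notes. The program that made the deposited counts and its use of strand are not given in the sources used here. The tables hold 16854 genes (PC-9, PC-9GR, HCC827, HCC827GR) and 16306 genes (both ER lines); the 16000 in both were used, and 854 and 306 were left out. CPM were computed on total counts, and log2 ratios of single pairs had a prior count of 2. Counts were rounded to whole numbers and tested with edgeR 4.0.16 (glmQLFit, robust, TMM, filterByExpr, R 4.3.3), with p-values adjusted over all tested genes by the Benjamini-Hochberg method and a threshold of 0.05. DESeq2 1.42.0, limma 3.58.1 (voom), other scalings, filters, prior counts and folds, and leaving out libraries were the alternatives. The test was also run on simulated data, with an outcome that is not reported here.

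All 31 members are named. Of the other pathway genes those are named that passed a test, were at least 2-fold changed one way in all 4 pairs, or had the highest or lowest fitted change of their list. Members and lists were chosen with earlier results of these data known. Counting intervals are 95% Poisson intervals. Nothing says the lines were cultured in replicate, and with 1 library per line the p-values measure the spread between lines.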

Additional observations from a re-analysis of the deposited data

Results flagged for a closer look

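In 2 of 31 members, PGD and MAFG, the PC-9GR ratio stood apart from those of the other 3 derived lines by Dixon's test over the 4 log2 ratios. PGD had a log2 ratio of 2.30 in PC-9GR, against 0.28 to 0.36 in the other 3. MAFG had one of 1.45 in PC-9GR, against 0.23 to 0.28 in the other 3. These ratios are on total counts, where the median gene of HCC827ER lay at -0.35. TMM scaling removes that shift and raises the HCC827ER ratios, which narrows both gaps. Dixon's test was not repeated on that scale, so whether the 2 flags hold there is not known. Chance flags about 1 in 20 such groups, and no cause was tested.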

How the results depend on the processing

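No member passed edgeR's test in the fit of derived against parental lines under any edgeR or limma-voom setting, and DESeq2 called 1 member. The median fitted change of the members stayed above 0, at 0.56 on total counts, 0.81 without the block for the line of origin, 0.52 without both GR lines, and between 0.34 and 1.17 with 1 library left out. In the lines derived from PC-9, leaving out 1 library gave 0 to 1 members past the test, the 1 without PC-9ER. A 1.5-fold limit gave 26 members higher (30% of genes) and 2 lower (31%) in PC-9GR, 14 higher (15.4%) and 2 lower (16.2%) in PC-9ER, 4 higher (16.6%) and 7 lower (15%) in HCC827GR, and 10 higher (19.3%) and 6 lower (41.8%) in HCC827ER. At 2-fold in HCC827ER, TMM and RLE scaling each gave 8 members higher (17.7% and 18.1% of genes) and 1 lower (19.2% and 18.8%), with a median of 0.46 and 0.48, and leaving out ribosomal protein genes gave 0.23. Of the members higher in all 4 pairs, chosen as a count after seeing the data, leaving out 1 pair gave 7 to 13, and at 2-fold 1 to 2, the fewest without PC-9GR and the most without HCC827GR for the first count. The fitted change kept its sign under every alternative for 19 members and changed it under at least 1 for 12. Values of the other sign were -0.084 (total counts), -0.11 (limma-voom), -0.067 (no block) and -0.87 (without both ER lines) for FTH1, -1.19 (limma-voom), -0.40 (without both ER lines) and -1.49 (without both GR lines) for GPX2, and -0.10 for KEAP1 without both ER lines. Without both GR lines they were -0.32 for GCLC, -0.038 for GSR, -0.20 for ME1 and -0.50 for SLC7A11. With 1 library left out, the fitted change ranged over -0.52 to 0.44 for FTH1, -0.11 to 0.47 for GCLC, -0.036 to 0.54 for GCLM, -1.79 to 1.07 for GPX2, -0.36 to 1.34 for GSR, -1.16 to 0.23 for IDH1, -0.11 to 0.48 for KEAP1, -0.26 to 0.57 for ME1, -0.84 to 0.32 for NFE2L2, -0.093 to 0.82 for SLC7A11, -0.44 to 1.64 for TRIM16 and -0.089 to 1.17 for TRIM16L. The causes were not tested. Leaving out PC-9 or HCC827 could not be run where that parent is the only one of a comparison. The labels carry no replicate numbers, so the line of origin was the only block. Depth limits GPX2 in HCC827GR and CBR3 most, and 3 counts are the floor.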

Other observations

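Among other antioxidant genes, chosen here after their values were seen, PRDX2, a peroxiredoxin that like PRDX1 removes hydrogen peroxide, had 0 counts in PC-9GR. It had 223.5 CPM in PC-9ER, against 242.4 CPM in PC-9, and 232.9 CPM in HCC827GR and 375.7 CPM in HCC827ER, against 171.4 CPM in HCC827. Against a floor of 3 counts in the PC-9GR library, PRDX2 was at least 1441-fold lower there than in PC-9, while PRDX1 was 3.05-fold higher in the same pair. TXNIP, which binds and inhibits thioredoxin, had 0.617 CPM in PC-9GR and 114.6 CPM in PC-9ER, against 96.7 CPM in PC-9. In the other family TXNIP had 9.95 CPM in HCC827GR and 65.2 CPM in HCC827ER, against 60.9 CPM in HCC827, so that it was lower than the parent in both GR lines. These are single libraries with no replicate.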
